A study of Canis lupus familiaris with 5 samples.

Results

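The genes described here serve antigen presentation on MHC class II in the dog: the DR chains (DLA-DRA, HLA-DRB1), the DQ chains (DLA-DQA1, DLA-DQB1), the peptide loading chains (DLA-DMA, DLA-DMB), the invariant chain CD74 and the regulators CIITA and RFX5. All probe sets whose gene symbol in the array's annotation was one of these 9 symbols were taken, which gave 9 of the 15115 genes named on the array and 18 of the 42924 probe sets that are not Affymetrix controls. The symbol HLA-DRB1 is the annotation's name for the dog's DR beta gene. All 9 genes were found in the RefSeq gene table of assembly UU_Cfam_GSD_1.0.

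The study profiled 5 cultured canine lymphoid tumour lines on an Affymetrix canine array, 1 array per line. By their labels, 17-71 (a B-lymphoid malignancy) and GL-1 (a B-cell leukaemia) are B-labelled. CL-1 (a primitive alpha/beta T-cell leukaemia), CLGL-90 (a large granular lymphocyte, LGL, T-cell leukaemia) and CLL-1390 (a primitive T-cell leukaemia) are T-labelled. All were grown untreated in RPMI with 10% FBS, and the sources used here give neither the animal behind a line nor its passage or clonality. No line had a replicate, so any p-value measures the spread between lines, and the number of arrays limits the precision of every value.

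Class II molecules are cell surface heterodimers that show peptides from the endocytic pathway to CD4 T cells. Their alpha and beta chains assemble with the invariant chain, which is then trimmed by cathepsins, and the DM heterodimer exchanges its last fragment for peptide. Transcription of these genes depends on an RFX, CREB and NF-Y complex on their promoters and on the coactivator CIITA. In the dog, unlike the mouse, resting T cells as well as B cells and dendritic cells can carry class II.

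Values are log2 intensities per probe set, normalized with GCRMA by the authors, in which each unit stands for a doubling. Background was judged from 59 control probe sets whose targets dogs lack (non-dog controls), the highest of which read 6.39 to 6.76, depending on the array. Expression does not follow from a value above that level. The range of a control over the 5 arrays had a median of 0.32 and reached 0.79, which serves as a rough guide to how far arrays differ near background. At higher levels nothing here measures that spread, so comparisons with this range are descriptions there. Levels are compared between lines within a probe set and never between probe sets. RNA was taken from whole cultures, so fewer cells carrying a transcript and less of it per cell cannot be told apart.

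Transcripts of the 7 genes that build and load class II (the DR, DQ and DM chains and CD74) were high in 17-71 and CL-1 and low in GL-1, CLGL-90 and CLL-1390. The lineage labels did not separate these lines, since 17-71 is B-labelled and CL-1 is T-labelled. In 14 of the 18 probe sets, 17-71 and CL-1 were the 2 highest lines by at least log2 2 over the third, a threshold chosen after the values were seen. These were all 14 probe sets of the 7 genes and neither probe set of CIITA or RFX5. The same pattern was found in 55 of 36661 probe sets tested (0.150%). Over the 18 probe sets the median range between lines was 5.75, against 0.77 over all tested probe sets.

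**Figure D1:**
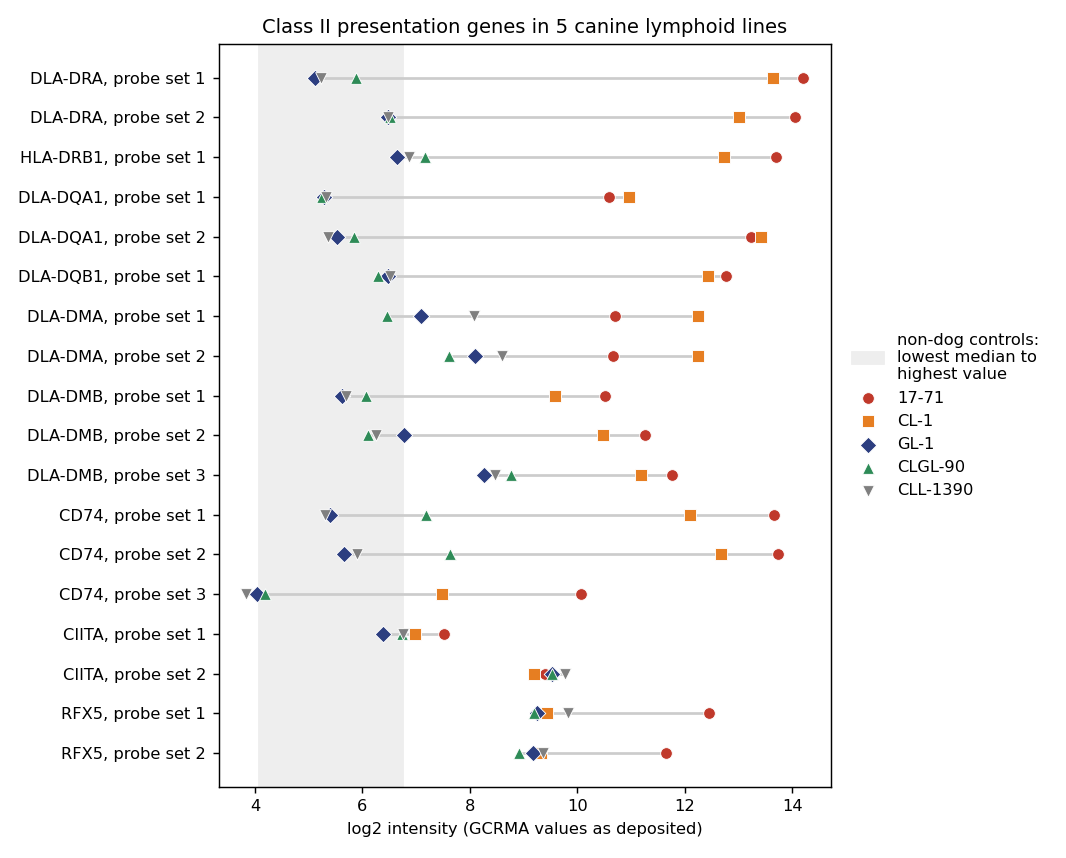
Log2 intensity (x axis) of the 18 probe sets of the 9 genes (y axis), with 1 point per line and a bar from the lowest to the highest line. The grey band runs from the lowest median to the highest value of the non-dog controls. In the DR, DQ, DM and CD74 probe sets, 17-71 and CL-1 lie to the right of the other 3 lines, whereas CIITA varies by at most 1.13 and RFX5 is high in 17-71.

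DLA-DRA encodes the DR alpha chain, the partner of every DR beta chain. Probe set 1 (Cfa.6456.1.S1_at) read 14.20 in 17-71, 13.63 in CL-1, 5.88 in CLGL-90, 5.23 in CLL-1390 and 5.11 in GL-1. Probe set 2 (CfaAffx.2126.1.S1_s_at) read 14.05 in 17-71 and 13.00 in CL-1, against 6.51 in CLGL-90 and 6.47 in both CLL-1390 and GL-1. In both probe sets 17-71 was above CL-1, by 0.57 and 1.05, and the 3 low lines did not exceed the highest non-dog control. The 3 low lines were not ordered beyond the range of the controls. In probe set 2 the level of 17-71 lay 7.29 and that of CL-1 6.25 above the highest control of any array.

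HLA-DRB1, the DR beta chain, read 13.69 in 17-71, 12.72 in CL-1, 7.16 in CLGL-90, 6.86 in CLL-1390 and 6.65 in GL-1 (Cfa.181.1.S1_at). The order of the lines was that of DLA-DRA, and CL-1 lay 5.56 above the third line. CLGL-90 and CLL-1390 were slightly above the highest control of their arrays (6.76 and 6.70). DR beta genes are highly polymorphic and have close relatives in the same region, and how well the probes match the alleles of each line was not tested.

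DLA-DQA1, the DQ alpha chain, was one of the 2 genes in which CL-1 was the highest line. Probe set 1 (Cfa.182.1.S1_s_at) read 10.96 in CL-1, 10.58 in 17-71, 5.33 in CLL-1390, 5.29 in GL-1 and 5.25 in CLGL-90. Probe set 2 (Cfa.182.1.S2_at) read 13.41 in CL-1, 13.23 in 17-71, 5.84 in CLGL-90, 5.53 in GL-1 and 5.36 in CLL-1390. The differences between CL-1 and 17-71, 0.38 and 0.18, were smaller than the largest range of a control. That range is a guide only near background, and with 1 array per line the order of these 2 lines is not resolved. Each low value lay under the highest control of its array.

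DLA-DQB1, the DQ beta chain, read 12.77 in 17-71, 12.43 in CL-1, 6.52 in CLL-1390, 6.48 in GL-1 and 6.29 in CLGL-90 (CfaAffx.2152.1.S1_s_at). The 2 high lines differed by 0.34 and the 3 low lines by 0.23, both within the range of the controls. The step between them, from CL-1 to CLL-1390, was 5.91.

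DLA-DMA and DLA-DMB encode the alpha and beta chains of DM, the peptide exchange factor of the endosome. DLA-DMA probe set 1 (Cfa.18297.1.S1_at) read 12.25 in CL-1, 10.70 in 17-71, 8.07 in CLL-1390, 7.08 in GL-1 and 6.46 in CLGL-90. Probe set 2 (CfaAffx.2197.1.S1_s_at) read 12.24 in CL-1, 10.66 in 17-71, 8.59 in CLL-1390, 8.09 in GL-1 and 7.61 in CLGL-90. CL-1 was above 17-71 by 1.55 and 1.58, the reverse of their order in DLA-DRA. The lower lines were spread more widely than in the DR and DQ genes, over 1.60 and 0.99, with CLL-1390 above CLGL-90 by more than the largest range of a control in both probe sets. CLL-1390 lay above the highest control of its array in both, so DLA-DMA read as a graded difference between lines rather than as a high and a background level.

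For DLA-DMB, probe set 1 (Cfa.21014.2.S1_a_at) read 10.52 in 17-71, 9.58 in CL-1, 6.07 in CLGL-90, 5.69 in CLL-1390 and 5.62 in GL-1. Probe set 2 (Cfa.21014.2.S1_s_at) read 11.25, 10.48, 6.11, 6.25 and 6.78 in the same lines. Probe set 3 (CfaAffx.2192.1.S1_at) read 11.76, 11.18, 8.76, 8.47 and 8.27. All 3 placed 17-71 first and CL-1 second, with differences of 0.94, 0.77 and 0.58. GL-1, CLGL-90 and CLL-1390 lay within 0.45, 0.68 and 0.49 of each other, inside the largest range of a control. The third probe set stayed above 8 in every line and had the smallest range of the 14, 3.49.

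CD74, the invariant chain, both chaperones class II chains and acts as a receptor chain for the cytokine MIF. Probe set 1 (Cfa.1333.3.S1_a_at) read 13.66 in 17-71, 12.09 in CL-1, 7.18 in CLGL-90, 5.39 in GL-1 and 5.30 in CLL-1390. Probe set 2 (Cfa.1333.3.S1_s_at) read 13.74 in 17-71, 12.67 in CL-1, 7.62 in CLGL-90, 5.89 in CLL-1390 and 5.66 in GL-1. CD74 thus had a middle level in CLGL-90, above the highest control of that array (6.76) in these probe sets, which the DR alpha and DQ probe sets did not show. Probe set 3 (CfaAffx.27739.1.S1_at) read 10.06 in 17-71, 7.48 in CL-1, 4.19 in CLGL-90, 4.04 in GL-1 and 3.84 in CLL-1390. In this probe set CLGL-90 was at background, and the difference between 17-71 and CL-1 was 2.57, against 1.57 and 1.07 in the others. The size of the difference between the high lines therefore depended on the probe set, while its direction was the same in all 3.

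A probe set missing from the annotation, whose identifier carries the same array cluster number as 2 CD74 probe sets, read 14.06 in 17-71, 13.14 in CL-1, 8.35 in CLGL-90, 6.62 in CLL-1390 and 6.23 in GL-1. It has no gene name here and was not counted among the 18. Its order of lines was that of CD74 probe set 2.

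CIITA is the coactivator without which class II genes are silent in most cells, and its probe sets did not follow those genes. Its brighter probe set, probe set 2 (CfaAffx.28933.1.S1_s_at), read 9.76 in CLL-1390, 9.52 in both GL-1 and CLGL-90, 9.39 in 17-71 and 9.20 in CL-1. The range of 0.56 lay within that of the controls, and the 2 lines high in class II had the lowest values. Probe set 1 (CfaAffx.28920.1.S1_s_at) read 7.52 in 17-71, 6.97 in CL-1, 6.75 in CLL-1390, 6.73 in CLGL-90 and 6.38 in GL-1. In this probe set 17-71 and CL-1 came first and second, but the step from CL-1 to the third line was 0.22, and every line lay within 0.76 of the highest control of any array or under it. The 2 probe sets gave different orders. No line shows that either responds to the transcript, so they show neither that CIITA differed nor that it was level.

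RFX5, the DNA-binding subunit of the RFX complex, was high in 17-71 alone. Probe set 1 (Cfa.633.1.S1_at) read 12.45 in 17-71, 9.83 in CLL-1390, 9.44 in CL-1, 9.24 in GL-1 and 9.19 in CLGL-90. Probe set 2 (CfaAffx.19615.1.S1_s_at) read 11.65 in 17-71, 9.36 in CLL-1390, 9.33 in CL-1, 9.17 in GL-1 and 8.92 in CLGL-90. Both probe sets were above background in every line, and 17-71 exceeded the second line by 2.62 and 2.29. CL-1, with class II transcripts near those of 17-71, had RFX5 at the level of the low lines, 3.0 and 2.32 under 17-71. A lead of at least log2 2 of 17-71 over every other line was found in 3 of the 18 probe sets, both of RFX5 and CD74 probe set 3, and in 237 of all 36661 tested (0.646%).

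Between the 2 high lines, 17-71 was above CL-1 in 14 of the 18 probe sets and CL-1 above 17-71 in 4, the pairs of DLA-DQA1 and DLA-DMA. The difference exceeded the largest range of a control in 10, 8 with 17-71 higher (1 of DLA-DRA, HLA-DRB1, 1 of DLA-DMB, all 3 of CD74 and both of RFX5) and 2 with CL-1 higher (DLA-DMA). These values lie above the level of the controls and no line had a replicate, so the count does not say which differences are resolved. RFX5, CD74 and DLA-DMA gave the widest differences between the 2 lines, and among the 7 genes the DQ chains gave the narrowest. Among GL-1, CLGL-90 and CLL-1390, the values of 10 of the 14 probe sets of the 7 genes lay within the largest control range of each other, the exceptions being both of DLA-DMA and CD74 probe sets 1 and 2. In 7 of the 14, all of these 3 lines were at or under the highest control of any array, so the size of the step to 17-71 and CL-1 there depends on background.

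Above the highest non-dog control of the array lay 18 of the 18 probe sets in 17-71 and 18 in CL-1, against 7 in GL-1, 8 in CLGL-90 and 8 in CLL-1390. With background set at log2 6 or at the 95th percentile of the controls, the counts became 11 in GL-1, 14 in CLGL-90 and 11 in CLL-1390. At log2 7 they were 17 in CL-1, 6 in GL-1, 8 in CLGL-90 and 6 in CLL-1390. Over all probe sets the shares were 56.5% in 17-71, 58.4% in CL-1, 55.0% in GL-1, 54.5% in CLGL-90 and 54.5% in CLL-1390. In GL-1 the 7 were both of DLA-DMA, 2 of DLA-DMB, both of RFX5 and CIITA probe set 2. The DRA, DQA1 and DQB1 probe sets were above it in none of GL-1, CLGL-90 and CLL-1390.

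The comparison by lineage label asked whether B-labelled lines (n = 2) differed from T-labelled lines (n = 3), and none of the 9 genes passed it. DLA-DRA probe set 2 had a mean of 10.26 ± 5.36 (SD, n = 2) in the B-labelled lines and 8.66 ± 3.76 (SD, n = 3) in the T-labelled lines. The difference was 1.60 (SE 3.17, 95% interval -6.68 to 9.87, limma adjusted p = 1.0). RFX5 probe set 1 differed by 1.36 (SE 0.98, 95% interval -1.21 to 3.92, limma adjusted p = 1.0), with 17-71 above and GL-1 below CLL-1390 and CL-1. For DLA-DMA the difference was -0.11 (SE 1.64) and for CIITA -0.04 (SE 0.23).

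In limma, 0 of the 18 probe sets passed at an adjusted p under 0.05, and 0 had an unadjusted p under 0.05 (the lowest was 0.178, for RFX5 probe set 2). Over all tested probe sets, 5 (0.0136%) passed and 1365 (3.72%) had an unadjusted p under 0.05. The groups overlapped in 18 of the 18. Both B-labelled lines were above every T-labelled line in 0 of the 18 and in 6.58% of all tested, and below every T-labelled line in 0 and in 8.29%. Differences were above 0 in 15 and below 0 in 3, with a median of 1.195 against -0.012 over all tested probe sets. Standard errors ran from 0.23 to 3.87, so intervals as wide as that of DLA-DRA leave large differences in either direction possible. Without 17-71, when GL-1 alone stands for the B label, the difference changed sign in 8 of the 9 genes (DLA-DRA -2.20, CD74 -3.07), and DLA-DMA was -1.39.

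**Figure D2:**
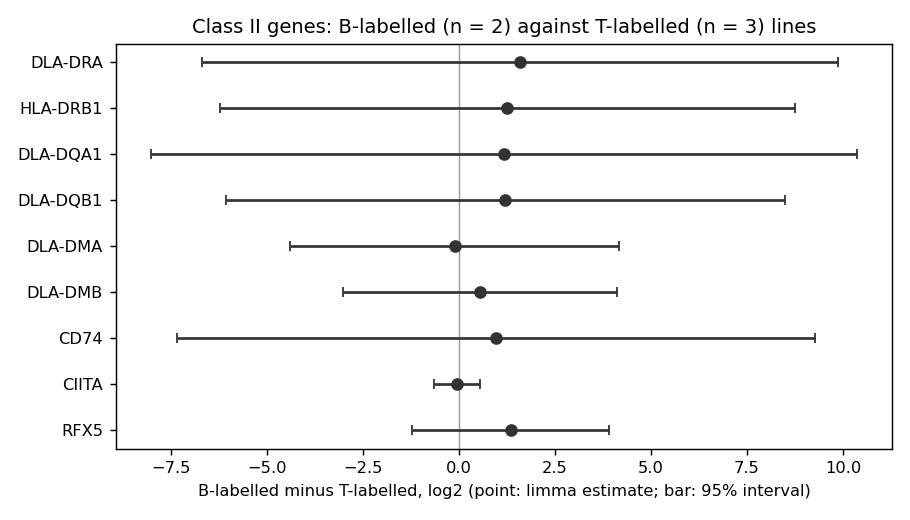
Difference of B-labelled (17-71 and GL-1, n = 2) minus T-labelled lines (n = 3, namely CL-1, CLGL-90 and CLL-1390) in log2 intensity (x axis) for the probe set of highest mean of each of the 9 genes (y axis). Points are limma estimates and bars 95% intervals, all of which span 0, from -0.64 to 0.56 for CIITA and from -8.02 to 10.37 for DLA-DQA1.

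The 6 genes that lie in the class II region of the dog MHC were compared with their neighbours, which share the region but not all of the function. In the RefSeq order of assembly UU_Cfam_GSD_1.0, the stretch from BTNL2 to RXRB holds 17 protein-coding genes, of which 1 had no probe set of its own. Of the 16 others, taken at their probe set of highest mean, the 6 members had ranges over the lines of 3.49 to 8.05. The 10 remaining genes had ranges of 0.30 to 1.29, and 17-71 and CL-1 led by log2 2 in 0 of them, against 6 of the 6 members. At another probe set, the neighbour DLA-DOA varied by 4.24 and was highest in GL-1. These neighbours, and the genes named from them, were chosen after the values were seen.

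DLA-DQB1 and DLA-DMB stand on either side of genes of the class I pathway. TAP2, a subunit of the peptide transporter of class I, read 11.75 in CL-1, 11.69 in 17-71, 11.49 in CLL-1390, 11.46 in CLGL-90 and 11.08 in GL-1. PSMB9, an immunoproteasome subunit next to DLA-DMB, read 13.39 in 17-71, 13.16 in CLL-1390, 12.97 in GL-1, 12.91 in CLGL-90 and 12.75 in CL-1. BRD2, a bromodomain protein on the other side of DLA-DMA, read 11.07 to 11.42. None of these followed the pattern of the DM genes beside them, and all were above background in every line.

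DLA-DOA and DLA-DOB encode DO, a modulator of DM, and are class II genes by sequence. DLA-DOA read 8.77 in GL-1, 8.12 in 17-71, 7.74 in CLL-1390, 7.73 in CLGL-90 and 7.48 in CL-1. Its other probe set read 10.35 in GL-1, 8.10 in 17-71, 6.68 in CLGL-90, 6.43 in CLL-1390 and 6.11 in CL-1. GL-1, low in the classical class II chains, was thus the highest line for DLA-DOA, by more than the largest range of a control in the second probe set and by less in the first. DLA-DOB read 6.03 to 6.70, near the highest controls.

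**Figure D3:**
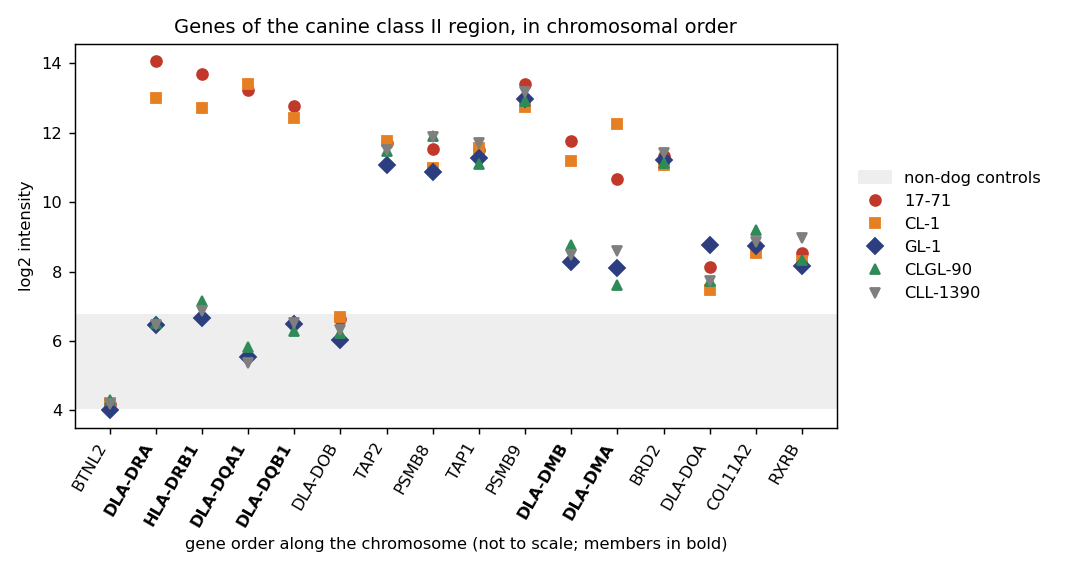
Log2 intensity (y axis) in each line for 16 genes in the order in which RefSeq places them along the chromosome (x axis, not to scale), with the 6 class II members in bold and the probe set of highest mean for each. The grey band runs from the lowest median to the highest value of the non-dog controls. At these probe sets 17-71 and CL-1 stand above the other lines in the 6 members, and the lines lie within 1.29 of each other in the other 10 genes. The other probe set of DLA-DOA, not drawn, has a range of 4.24.

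Other genes of the pathway were followed as 7 lists (41 genes with a probe set of their own, all tested): promoter factors, the interferon gamma route to CIITA, lineage regulators of CIITA, peptide processing, class II turnover, costimulation and the receptors of class II. Of the 41, 0 passed in limma, with 7 higher and 1 lower in the B-labelled lines at an unadjusted p under 0.05 (3.72% of all tested probe sets), and a median difference of 0.13. At the probe set of highest mean, 17-71 and CL-1 were the 2 highest lines by log2 2 in 0 of the 41. Over all 83 probe sets of these genes they were so in 1, the dimmer of the 2 probe sets of CTSL, a cathepsin of the endocytic pathway. It read 9.50 in CL-1, 7.95 in 17-71, 4.79 in CLL-1390, 3.74 in GL-1 and 3.49 in CLGL-90, a lead of 3.16, while the brighter read 8.39 in CL-1, 7.64 in 17-71 and 7.02 to 7.27 in the others. CTSL was named for this after its values were seen.

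The promoter factors bind with RFX5 at class II promoters, and all 8 were above background in every line, with 0 of 8 called. ATF1, a CREB family factor, read 10.71 in CL-1 and 8.64 to 9.44 in the other lines, the widest range of the list (2.06). RFXAP, a further subunit of the RFX complex, read 10.22 in CL-1, 9.62 in GL-1, 9.44 in CLL-1390, 8.87 in CLGL-90 and 8.36 in 17-71. 17-71, the line high in RFX5, was thus not high in RFXAP. NFYC, a subunit of NF-Y, read 10.94 in CLL-1390 and 9.69 to 10.24 elsewhere, and CREB1 varied by 1.16.

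In the interferon gamma route, which induces CIITA in many cells, 0 of 8 genes were called. IFNGR2, a chain of the interferon gamma receptor, read 12.57 in GL-1, 12.02 in 17-71, 9.48 in CL-1, 7.82 in CLGL-90 and 7.33 in CLL-1390. In this probe set, that of highest mean among its 4, both B-labelled lines were above every T-labelled line. The difference was 4.08 on average (SE 0.70, limma adjusted p = 0.717). Another IFNGR2 probe set read 8.75 in 17-71, 6.86 in CL-1, 6.84 in GL-1, 5.44 in CLL-1390 and 5.32 in CLGL-90. The label groups overlapped there, and CL-1 and GL-1 were nearly level. In the remaining IFNGR2 probe sets both B-labelled lines were again above every T-labelled line. IFNGR1, the ligand-binding chain, read 11.85 in GL-1, 11.81 in CLGL-90, 11.03 in 17-71, 8.36 in CL-1 and 8.11 in CLL-1390. At the probe sets of highest mean, neither receptor chain thus followed class II. IRF1, a factor that acts on a CIITA promoter, read 10.31 in CLL-1390, 9.87 in CL-1, 9.57 in CLGL-90, 8.89 in 17-71 and 8.77 in GL-1. IFNG itself read 7.70 in CLGL-90 and 6.22 to 6.62 in the other lines.

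Of the 6 lineage regulators of CIITA with a probe set, 0 were called. SPI1 (PU.1), which acts on CIITA in myeloid and B cells, read 9.45 in 17-71, 8.94 in GL-1 and 5.21 to 5.51 in the T-labelled lines, which differed from the B-labelled ones by 3.81 (SE 0.23, limma adjusted p = 0.0681). Of the 2 lines high in class II, 17-71 was thus high in SPI1 and CL-1 was at background with the other T-labelled lines. PRDM1 (BLIMP-1), a repressor of CIITA in plasma cells, read 10.48 in CL-1, 8.88 in CLGL-90, 8.29 in GL-1, 7.03 in 17-71 and 6.97 in CLL-1390. ZBTB32, a further repressor, read 6.78 to 8.43 and was highest in 17-71. EZH2, a histone methyltransferase, read 11.87 in 17-71, 11.33 in CL-1 and 10.24 to 10.79 in the others.

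Among the 10 genes of peptide processing, 0 were called and, at the probe set of highest mean, 5 varied by more than log2 2. Other probe sets of CTSL, LGMN and DLA-DOA varied by up to 6.0, 4.48 and 4.24, the first pair highest in CL-1 and the last in GL-1. CTSS, the cathepsin that trims the invariant chain in professional presenting cells, read 13.56 in 17-71, 11.97 in CLGL-90, 10.68 in CL-1, 9.13 in CLL-1390 and 8.94 in GL-1. The 3 lines highest in CTSS were those highest in CD74, with CLGL-90 and CL-1 in the opposite order. IFI30 (GILT), a thiol reductase of the same compartment, read 12.22 in 17-71, 12.14 in CL-1, 11.99 in CLGL-90, 9.17 in GL-1 and 8.79 in CLL-1390. These 3 highest values differed by less than the largest range of a control, as did those of the other probe set (11.70 in CL-1, 11.57 in 17-71 and 11.11 in CLGL-90). CTSH read 13.36 in 17-71, 11.76 in GL-1, 9.53 in CL-1, 8.52 in CLGL-90 and 7.15 in CLL-1390, and CTSB 14.21 in 17-71, 12.47 in GL-1 and 10.70 to 11.96 in the T-labelled lines.

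CD83, which shields class II from degradation, was in the turnover list (0 of 3 called) and read 7.76 in 17-71, 6.58 in CL-1, 5.28 in CLL-1390, 5.24 in GL-1 and 5.20 in CLGL-90. The 2 lines high in class II came first, and CL-1 was just above the highest control of its array. The ubiquitin ligases MARCHF8 (6.26 to 7.74) and MARCHF1 (5.45 to 6.61), which remove class II from the surface, varied by 1.48 and 1.16.

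Costimulatory ligands, which act beside class II, had 0 of 4 called and varied in other ways. CD80 read 12.76 in CLGL-90, 10.08 in 17-71, 8.44 in CL-1, 4.80 in GL-1 and 4.52 in CLL-1390. CD86 read 11.12 in CLGL-90, 10.86 in 17-71, 10.48 in GL-1, 6.92 in CL-1 and 6.75 in CLL-1390. CLGL-90, low in the class II chains, was thus the highest line for CD80, while for CD86 its lead over 17-71 and GL-1 was within the largest range of a control. CD40, the receptor through which T cells activate presenting cells, read 9.17 in 17-71 and 4.78 to 5.49 in the others, and ICOSLG 7.33 in 17-71 and 5.24 to 5.62. Of the receptors of class II (0 of 2 called), LAG3 read 8.97 in CLL-1390, 8.63 in 17-71, 8.13 in CLGL-90, 7.53 in GL-1 and 6.25 in CL-1, and CD4 read 8.10 to 8.43.

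**Figure D4:**
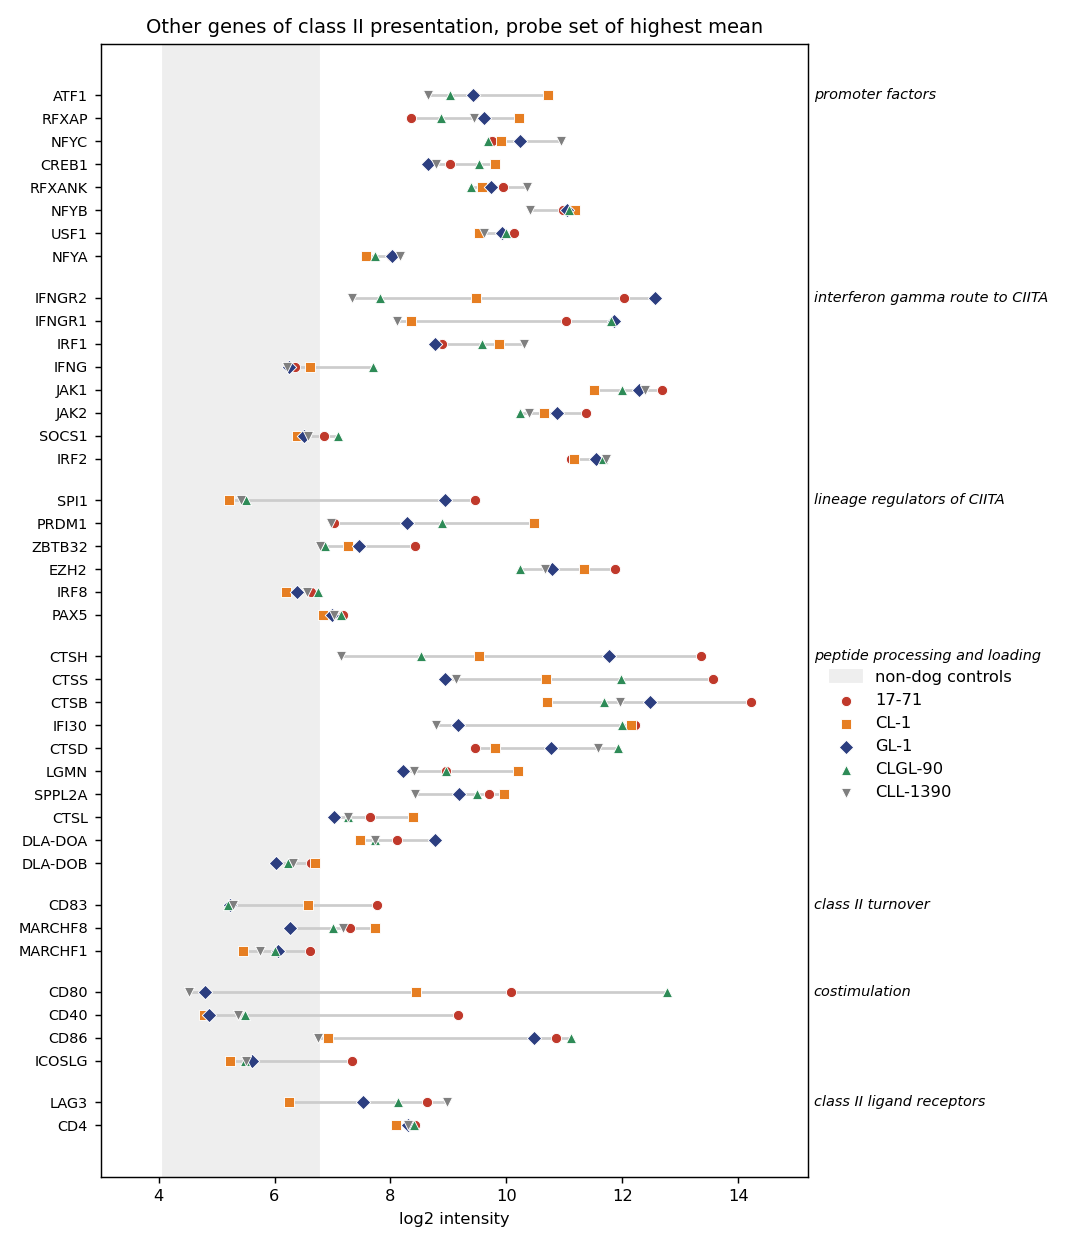
Log2 intensity (x axis) of the 41 other genes of class II presentation (y axis), grouped in 7 lists, with 1 point per line and a bar from the lowest to the highest line. The grey band runs from the lowest median to the highest value of the non-dog controls. At these probe sets, the brightest of each gene, 17-71 and CL-1 lead the third line by log2 2 in 0 of the 41, and costimulatory CD80 is highest in CLGL-90.

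The class I pathway was set beside class II as a comparison, with 0 of 10 genes called. Its median range over the lines was 0.87, and B2M read 13.90 to 14.41. DLA-79, a class I gene, read 13.68 in 17-71 and 7.58 to 8.64 in the other lines, and DLA-64 read 12.08 in CLL-1390 and 8.70 in CL-1 at the extremes. CL-1, high in class II, was the lowest line for DLA-64. For DLA-79, CL-1 and GL-1 differed by less than the largest control range in all 3 probe sets, so which was lowest is not resolved.

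The labels were checked against lineage markers. Of 6 B-cell markers with a probe set, 1 was above the highest control in 17-71, 1 in CL-1, 2 in GL-1, 2 in CLGL-90 and 1 in CLL-1390, and CD79B, CD22 and BLK were above it in none. CD79A read 7.83 in B-labelled GL-1 and 5.15 to 5.80 in the other lines. In CLGL-90 MS4A1 read 6.79, against a highest control of 6.76 on that array. Of 6 T-cell markers, 3 were above it in 17-71, 4 in CL-1 and 6 in each other line. CD3D read 13.51 in CLGL-90, 10.89 in CLL-1390, 9.78 in B-labelled GL-1, 5.44 in T-labelled CL-1 and 5.14 in 17-71. LCK read 11.78, 11.44, 10.65, 8.88 and 5.58 in the same lines. CD3E read 10.24 in CLGL-90, 8.48 in CLL-1390 and 7.81 to 8.13 in the others, and its other probe set read 6.18 in GL-1. CD5 read 7.52 to 8.04 over all lines. The shares of all probe sets above the highest control were 56.5% in 17-71, 58.4% in CL-1, 55.0% in GL-1, 54.5% in CLGL-90 and 54.5% in CLL-1390. Of 6 myeloid markers, 5, 3, 4, 2 and 3 were above it in 17-71, CL-1, GL-1, CLGL-90 and CLL-1390, and LYZ was higher in the B-labelled lines by 8.51 (SE 0.29, limma adjusted p = 0.0403). No probe set passed in limma without any 1 line or with CLGL-90 as its own group (counts of 0), so this call is lost there. S100A9 and S100A8 were also higher in the B-labelled lines, by 6.32 and 3.88, and were not called. The rest of the myeloid list did not follow LYZ. CD14 read 7.95 to 8.26, CSF1R 6.53 to 6.72 and ITGAM 6.47 to 7.65, the last highest in T-labelled CLL-1390. None of these 3 lists had 17-71 and CL-1 at the top together.

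Dendritic cells are rich in class II, and of their 6 markers with a probe set 0 were called and 0 had 17-71 and CL-1 as the 2 highest lines by log2 2. Above the highest control were 4 of the 6 in 17-71, 3 in CL-1 and 1 in each of GL-1, CLGL-90 and CLL-1390, against 56.5%, 58.4%, 55.0%, 54.5% and 54.5% of all probe sets. Their summed log2 level was 48.63 in 17-71, 43.00 in CL-1, 41.92 in CLGL-90, 36.99 in GL-1 and 36.84 in CLL-1390. For the myeloid list this sum was 53.5 in 17-71, 52.47 in GL-1 and 33.77 in CL-1. It was highest in CLGL-90 for the T-cell list (63.44) and in GL-1 for the B-cell list (37.1). Such a sum adds unlike probe sets, so it does not show that 17-71 and CL-1 share the same markers. CCR7, a homing receptor, read 9.42 in CL-1, 7.56 in 17-71 and 5.67 to 6.64 in the others. LAMP3, a lysosomal protein of mature dendritic cells, read 11.15 in 17-71 and 5.45 in CL-1, and ITGAX (CD11c) 8.80 in 17-71 and 5.76 in CL-1. BATF3, a transcription factor of cross-presenting dendritic cells, read 9.84 in CLGL-90, 9.43 in CL-1, 9.27 in 17-71 and 6.88 to 7.46 in the others, and FSCN1 7.06 in CL-1 and 5.55 in 17-71. XCR1, which marks cross-presenting dendritic cells, did not exceed the highest control in any of the 5 lines. The part of these markers in the class II levels was not tested.

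To see which other genes shared the pattern, all named probe sets were ranked by their root mean square distance from DLA-DRA probe set 2, after each was centred on its mean over the 5 lines. The distances of the other class II probe sets were 0.39 for HLA-DRB1, 0.49 for DLA-DQB1, 0.54 for DLA-DQA1 probe set 2 and 0.67 for CD74 probe set 2, against 3.61 for CIITA probe set 2 and 2.78 for RFX5 probe set 1. The nearest gene outside the members was GTSF1, a germline factor of small RNA silencing, at 0.33. GTSF1 read 12.38 in 17-71, 12.11 in CL-1, 5.70 in CLL-1390 and 5.65 in both GL-1 and CLGL-90, and 3 of its 3 probe sets had the gap of log2 2. It was closer to DLA-DRA probe set 2 over these 5 arrays than any other class II gene was, while DLA-DRA probe set 1 itself lay at 0.78. GTSF1 was picked as the nearest of all named genes, and its lead over HLA-DRB1 was not tested.

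CTSZ, a lysosomal cathepsin, came at place 4 with a distance of 0.86 and had the gap in 2 of 2 probe sets. It read 13.02 in 17-71, 9.86 in CL-1 and 5.24 to 5.64 in the other lines. BHLHE41, a transcription factor, at 1.35 had 1 probe set, which read 11.09 in CL-1, 9.47 in 17-71 and 4.59 to 5.91 in the others. The remaining 5 genes had the gap in some of their probe sets and not in others: CCDC34 (0.55, 2 of 5), PSMA5 (0.74, 1 of 3), KIF16B (0.88, 1 of 3), RBM11 (1.36, 1 of 2) and PON2 (1.38, 1 of 2). For PSMA5, a proteasome subunit, the near probe set read 9.87 in 17-71, 10.07 in CL-1 and 4.15 to 4.29 in the others, while another read 13.16 to 13.46 in all 5 lines. Of the 55 probe sets with the pattern, 14 were class II members, 31 belonged to 26 other genes and 10 had no single gene symbol. With only 5 arrays, all normalized together, likeness is a description of these lines; by Pearson correlation 1 of the 8 genes (GTSF1) stayed among the nearest 8.

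**Figure D5:**
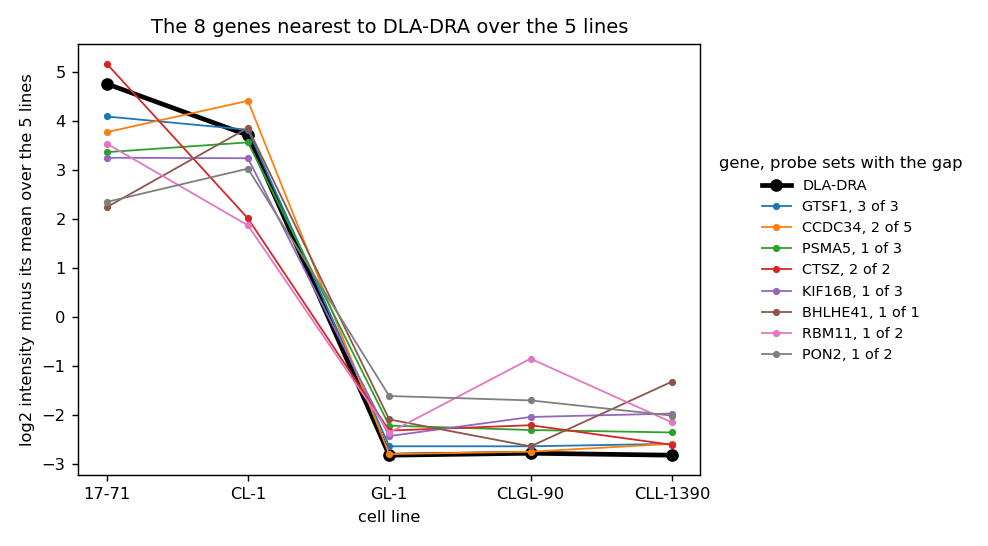
Log2 intensity minus its mean over the 5 lines (y axis) in each line (x axis) for DLA-DRA probe set 2 (thick black line) and the 8 genes nearest to it. The legend gives the number of probe sets of each gene in which 17-71 and CL-1 lead by log2 2; GTSF1 has it in 3 of 3 and CTSZ in 2 of 2.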

How the data were processed

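Total RNA of 5 canine lymphoid lines was hybridised to an Affymetrix canine array, 1 array per line. Each probe set has a deposited log2 intensity, for which the authors used GCRMA according to the submitters' processing notes; the sources used here give no version, probe filter or scanner setting. Normalization of this kind forces arrays to a common distribution (array medians 6.87 to 6.99) and sets low values by a background model. Gene names came from the platform annotation: 29254 probe sets had 1 symbol, 439 had several, 13231 were not listed, and 111 Affymetrix controls were left out. Of the 18 probe sets, 9 carry the suffix s_at and 2 a_at, whose probes can match several transcripts. RefSeq (UU_Cfam_GSD_1.0) was used for names and neighbours.

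Tests covered the 36661 probe sets with log2 5 or more on 2 arrays or more and used limma 3.58.1 (lmFit, then eBayes, R 4.3.3, two-sided, Benjamini-Hochberg at 0.05, prior df 1.75, residual df 3), after a check on simulated data. All 18 passed this filter. In the simulated data 200 probe sets were shifted between the groups, with noise of the size of the fitted spread. Of these, 0.0% were called at a shift of log2 1 and 0.0% at log2 2. At log2 4 the share was 69.0% and at log2 6 it was 86.5%, so the test missed the shifts of log2 1 and log2 2. The shifted probe sets were drawn at random from all tested. Their median range was 0.77 over all tested and 5.75 over the 18, so these shares do not hold for the class II genes. For a gene with several probe sets, the one of highest mean stood for it. Named were all member probe sets, up to 4 genes per list by range, and the 8 genes nearest to DLA-DRA. The neighbours in the region, DLA-DOA, DLA-DOB, B2M and single marker genes were named after their values were seen. Members and lists were chosen with earlier results of these data known. Alternatives covered the filter, normalization, floor, prior, grouping of CLGL-90, each line left out, the summary of a gene, the background level and the likeness measure; those on the pattern of 17-71 and CL-1 were added after seeing the data.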

Additional observations from a re-analysis of the deposited data

How the results depend on the processing

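The count of class II probe sets called was 0 under 12 of 12 alternatives, while the count over all probe sets, 5, was 3 with no filter, 14 with a filter at log2 7, 3 with centred arrays, 15 with an intensity trend and robust prior, 0 with CLGL-90 as its own group (1607 unadjusted) and 0 without any 1 line (1186 to 2108 unadjusted, limma). Of 122 member differences under alternatives, 105 kept their sign and 17 reversed. The filters and the prior cannot change a difference, and the floor changed none here, so part of the 105 was fixed in advance. CLGL-90 as its own group gives the same differences as leaving CLGL-90 out. Leaving out each line moved DLA-DRA from -2.20 to 5.39, HLA-DRB1 from -2.27 to 4.78, DLA-DQA1 from -2.68 to 5.03, DLA-DQB1 from -1.94 to 4.36, DLA-DMA from -1.39 to 1.27, DLA-DMB from -1.20 to 2.29, CD74 from -3.07 to 5.01, CIITA from -0.19 to 0.09 and RFX5 from -0.25 to 2.96. Apart from DLA-DMA and CIITA, the lowest value was the one without 17-71 and the highest the one without GL-1; a group left with 1 line is assumed to vary like the other. With CLGL-90 as its own group DLA-DQA1 was -0.00458, and CIITA was 0.05 as the mean of its probe sets and 0.13 at the probe set of largest range. Probe sets above background were 11 in GL-1 and 14 in CLGL-90 at log2 6, and 11 and 14 at the 95th percentile of the controls, against 7 and 8. At log2 7 they were 6 in GL-1 and 8 in CLGL-90. The pattern of 17-71 and CL-1 held in 11 to 14 of the 18 over 6 alternatives. Of the 8 genes nearest to DLA-DRA, 7 were shared with CD74 as the reference and 1 by Pearson correlation. The cause of these changes was not tested. Leaving out a line changed both the number of lines and which lines were compared. No paired analysis was possible because each array is a different line and the labels pair no lines. Values at the level of the non-dog controls limit how well the size of a difference is known.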

Other observations

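The class I gene DLA-88 gave different patterns by its 2 probe sets. The brighter read 12.75 to 14.00 over the 5 lines, whereas the other read 13.78 in CLGL-90 and 13.55 in CL-1 against 4.05 in GL-1, 3.94 in CLL-1390 and 3.75 in 17-71. Why the 2 probe sets differ was not tested.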
